A study of Rattus norvegicus with 6 samples.

Results

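The genes described here are 9 markers of white blood cells, measured in rat liver with 14 array probes. They are the pan-leukocyte gene Ptprc, the T cell genes Lck, Cd3d, Cd3e, Cd3g, Cd2, Cd8a and Cd4, and the B cell gene Cd79b. Members were every probe, other than controls, whose RefSeq accession belongs to 1 of these genes, which gave 14 of 61657 probes and 9 of the 15284 genes named on the array. Each of 6 male Sprague-Dawley rats gave total RNA from its liver, which was labelled with Cy3 and read on a 1-colour array of its own. A group of 3 animals received corn oil, the vehicle. The other 3 were dosed daily with 1000 mg of phenolphthalein per kg of body weight. Phenolphthalein is an acid-base indicator formerly used as a purgative. Dosing lasted 28 days by the design text and 9 weeks by the treatment protocol. Both groups (Crl:CD(SD)) were bought at 5 weeks of age and ate a basal diet. The labels mention no sorting of cells and no flushing of blood from the tissue.

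Ptprc encodes CD45, a membrane tyrosine phosphatase carried by white blood cells of all lineages. In T cells the antigen receptor signals through the CD3 chains, encoded by Cd3d, Cd3e and Cd3g, which the kinase Lck phosphorylates. CD4 and CD8 are the co-receptors that bring Lck to the receptor, CD2 is an adhesion receptor, and CD79B is a signalling chain of the B cell receptor. The liver holds T cells, natural killer (NK) cells, some B cells and many resident macrophages, the Kupffer cells. In the rat CD4 is also carried by monocytes and macrophages, and CD8A by NK cells, so these 2 genes do not mark T cells alone.

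Between 62.1% and 65.1% of probes were well above background on each array, and the 75th percentile of the signal lay between 551 and 636. Values are given as log2 of the signal relative to that percentile of the same array, so a probe at 0 is as bright as it. The corn oil arrays shared slide 1 and scan 1 and the phenolphthalein arrays slide 2 and scan 2, so treatment cannot be told apart from slide or scan in what follows. In whole tissue, fewer leukocytes and less of a transcript per leukocyte cannot be told apart either.

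Every tested member had a lower mean with phenolphthalein, and none passed the test over all genes. Of the 9 genes, 7 were bright enough to test, and their log2 fold changes ran from -0.60 to -0.28 with a median of -0.43. The median over all 11434 genes tested was 0.01, and 48.2% of them had a lower mean. By limma, with p-values adjusted over all genes by the Benjamini-Hochberg method at 0.05, 0 of 7 members passed. The background was 0.00875% of genes called lower and 0.0525% called higher. At an unadjusted p under 0.05 there were 4 lower members, Ptprc, Lck, Cd3d and Cd3g, and 0 higher ones, where 8.11% of all genes were lower and 7.16% higher. For the same 4 genes the groups did not overlap, phenolphthalein being lower on every array, which held for 11.0% of all genes, and 12.2% did not overlap the other way. The count at an unadjusted p under 0.05 was 2 without corn oil replicate 1, without phenolphthalein replicate 2, with normexp background correction or with a median shift. These genes were chosen with earlier results of these data known, so the counts describe the members and do not test them. The 2 genes not tested, Cd3e and Cd2, were well above background on fewer than 3 arrays.

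The starts of the 5 genes whose brightest probe did not overlap between groups, Ptprc, Lck, Cd3d, Cd3e and Cd3g, are shown here, as RefSeq gives them in rat assembly GRCr8, so that their sequence can be set beside their values. Each is the 250 bases before the transcript start, read 5′ to 3′ on the gene's strand. They lie at chr13:52259747-52259996, minus strand, for Ptprc, at chr5:147201268-147201517, minus strand, and chr5:147183651-147183900, minus strand, for the 2 starts of Lck, at chr8:54185269-54185518, plus strand, for Cd3d, at chr8:54211771-54212020, minus strand, for Cd3e, and at chr8:54183919-54184168, minus strand, for Cd3g. Capitals mark AGGAAG, a core of sites bound by ETS factors, and TGTGGT, a core of sites bound by RUNX factors, in either orientation.
Ptprc: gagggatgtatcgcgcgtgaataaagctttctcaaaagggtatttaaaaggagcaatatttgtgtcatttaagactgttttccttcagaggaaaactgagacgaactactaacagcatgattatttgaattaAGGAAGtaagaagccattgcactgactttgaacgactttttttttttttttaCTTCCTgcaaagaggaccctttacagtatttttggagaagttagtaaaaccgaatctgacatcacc
Lck, upstream start: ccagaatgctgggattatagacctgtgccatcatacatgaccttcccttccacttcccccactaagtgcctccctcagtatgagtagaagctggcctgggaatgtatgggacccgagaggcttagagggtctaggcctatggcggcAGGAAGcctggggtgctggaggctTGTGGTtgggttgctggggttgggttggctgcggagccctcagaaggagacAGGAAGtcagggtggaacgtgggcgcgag
Lck, downstream start: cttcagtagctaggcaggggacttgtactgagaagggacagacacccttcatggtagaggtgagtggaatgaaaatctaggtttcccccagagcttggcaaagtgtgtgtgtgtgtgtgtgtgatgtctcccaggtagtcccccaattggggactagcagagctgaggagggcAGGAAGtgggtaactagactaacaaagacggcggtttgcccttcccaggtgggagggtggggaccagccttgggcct
Cd3d: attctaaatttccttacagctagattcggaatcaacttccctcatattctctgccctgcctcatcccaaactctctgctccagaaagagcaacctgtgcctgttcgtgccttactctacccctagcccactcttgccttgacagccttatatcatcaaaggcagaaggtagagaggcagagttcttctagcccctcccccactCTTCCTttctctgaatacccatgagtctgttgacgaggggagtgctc
Cd3e: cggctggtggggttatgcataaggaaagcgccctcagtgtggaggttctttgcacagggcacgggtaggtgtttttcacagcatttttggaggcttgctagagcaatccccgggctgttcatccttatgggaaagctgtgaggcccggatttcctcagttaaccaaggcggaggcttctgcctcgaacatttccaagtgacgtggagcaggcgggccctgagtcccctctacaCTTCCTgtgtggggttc
Cd3g: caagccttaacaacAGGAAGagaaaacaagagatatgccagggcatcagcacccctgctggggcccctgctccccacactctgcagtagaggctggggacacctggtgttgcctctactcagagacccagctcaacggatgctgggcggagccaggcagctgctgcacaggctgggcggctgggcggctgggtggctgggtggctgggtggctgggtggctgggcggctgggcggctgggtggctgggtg

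AGGAAG or its reverse complement was found in 6 of the 8 windows of the 7 members with an entry in that table, and in 29.5% of all 33469 windows of 250 bases. It stood in the windows of Ptprc, Lck, Cd3d, Cd3e and Cd3g and not in those of Cd2 and Cd8a. TGTGGT or its reverse complement was found in 2 of the 8, the upstream window of Lck and that of Cd2, and in 14.5% of all windows. The letters of the 2 motifs do not overlap in any printed window. Ptprc's window held AGGAAG once in each orientation, and its GC content was 36.0%, against 66.4% for Cd3g. A match of letters is a description of the sequence and shows no binding. The printed genes were picked by their values, and for Cd3e no phenolphthalein value was well above background. Any link between these letters and the differences was not tested. Cd3d and Cd3g start close together on opposite strands, and Cd3e starts in the same region of that chromosome. The array probes' own sequences and their places on the transcripts are not used here.

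Ptprc had the smallest p of the 7 tested members. Its brightest probe read 0.83, 0.69 and 0.61 on the corn oil arrays, in the order of replicates 1 to 3 used throughout, and 0.09, -0.02 and 0.28 on the phenolphthalein arrays. Every phenolphthalein array lay below every corn oil array, with phenolphthalein replicate 3 nearest to them. The corn oil mean was 0.71 ± 0.11 and the phenolphthalein mean 0.12 ± 0.15 (SD, n = 3 each). Its log2 fold change was -0.59 ± 0.11 (SE), or 0.663 of the corn oil level with a 95% interval of 0.551 to 0.798, and limma's adjusted p was 0.154. It was ranked 122 by p among all genes tested.

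The other 4 Ptprc probes had lower means too. A probe of low signal read -3.01, -3.02 and -3.12 in corn oil and -3.69, -3.63 and -3.48 with phenolphthalein, a log2 fold change of -0.54 ± 0.09 (SE) in limma's fit over all probes. It had the smallest p of the 5, with a limma adjusted p of 0.173 over 39411 probes. The log2 fold changes of the 5 Ptprc probes ran from -0.72 to -0.35, and none of the 5 overlapped between groups. The probe with the smallest change, -0.35 ± 0.09 (SE), carries another RefSeq accession of Ptprc than the remaining 4. It read -2.02, -2.02 and -2.12 in corn oil and -2.32, -2.54 and -2.35 with phenolphthalein. Its log2 fold change was 0.19 to 0.37 above those of the others, and in 4 2-sided exact permutation tests over arrays p was 0.1 to 0.2 and 0.2 after adjustment. With 3 against 3 arrays, 0.1 is the smallest p that test can give. Over all probes 0 of 12 tested member probes passed in limma, against a background of 0.00254% called lower and 0.0457% called higher. All 12 had a lower mean, against 46.6% of all probes. An unadjusted p under 0.05 was found for 9 of the 12, all lower, where 6.37% of all probes were lower and 6.84% higher. The groups did not overlap for 9 of the 12, where 9.23% of all probes were lower without overlap and 11.8% higher. Both counts of 9 hold all 5 Ptprc probes, which read the same gene in the same animals. They also hold a dim Cd4 probe whose phenolphthalein values are partly background, so they are not 9 separate results.

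**Figure D1:**
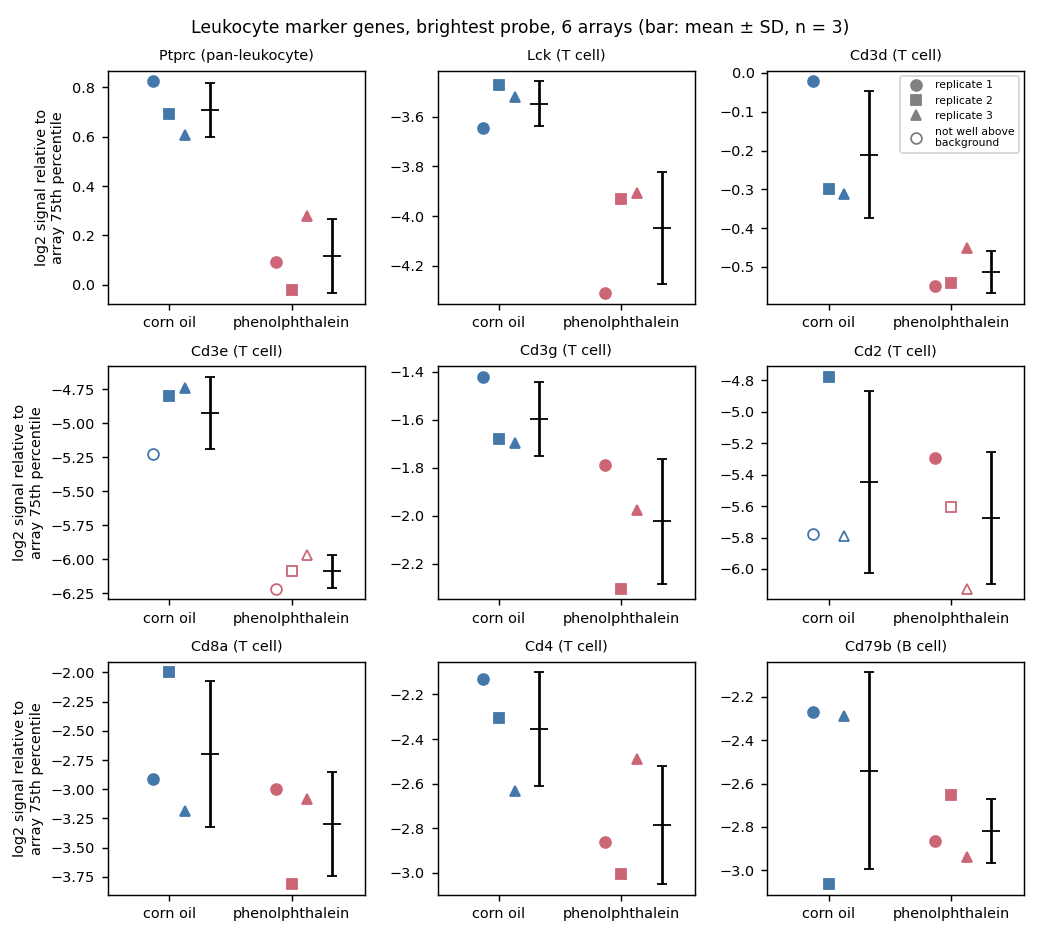
Log2 signal relative to the array's 75th percentile (vertical axis) of the brightest probe of each gene on the 3 corn oil (blue) and 3 phenolphthalein (red) arrays, with bars for mean ± SD and open symbols for spots not well above background; each panel has its own scale. Ptprc, Lck, Cd3d and Cd3g do not overlap between groups, Cd8a, Cd4 and Cd79b do, and Cd3e is not well above background on any phenolphthalein array.

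Lck, the kinase that starts T cell receptor signalling, read -3.65, -3.47 and -3.52 in corn oil and -4.31, -3.93 and -3.90 with phenolphthalein. The groups did not overlap, and phenolphthalein replicate 1 was the lowest. Lck's log2 fold change was -0.50 ± 0.13 (SE), or 0.706 of the corn oil level, with an adjusted p of 0.217 in limma. This probe was dim, and with normexp background correction its log2 fold change was -0.13.

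The CD3 chain genes Cd3d and Cd3g both had lower means without overlap. Cd3d read -0.02, -0.30 and -0.31 in corn oil and -0.55, -0.54 and -0.45 with phenolphthalein. The groups did not overlap, and corn oil replicate 1 stood above the other 5 arrays. Its log2 fold change was -0.30 ± 0.10 (SE), 0.811 of the corn oil level, with a limma adjusted p of 0.279. Cd3g read -1.42, -1.68 and -1.70 in corn oil and -1.79, -2.30 and -1.98 with phenolphthalein. Its groups lay next to each other without overlap, with phenolphthalein replicate 1 just under corn oil replicates 2 and 3. Its log2 fold change was -0.43 ± 0.16 (SE), with a limma adjusted p of 0.299.

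Cd3e was near the limit of detection. It read -5.23, -4.80 and -4.74 in corn oil, well above background on 2 of 3 arrays, and -6.22, -6.09 and -5.97 with phenolphthalein, well above background on 0 of 3. All phenolphthalein arrays were lower. The measured means differed by -1.17 log2 units, with phenolphthalein values at background. With a floor per array in their place, the corn oil mean over its 3 arrays was 1.45-fold higher. The floor was the probe's own signal or the dimmest signal that was still well above background, whichever was higher. This ratio is not a firm minimum. Corn oil replicate 1, at -5.23, was not well above background, while the dimmest signal so marked on that array was -5.41. With no filter on dim probes, limma's adjusted p for Cd3e was 0.15.

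Cd2 was dim in both groups and well above background on 1 of 3 arrays of each. It read -5.78, -4.78 and -5.79 in corn oil and -5.30, -5.60 and -6.13 with phenolphthalein. The groups overlapped, and no fold is given.

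Cd8a and Cd4, the co-receptor genes, had lower means with overlapping groups. Cd8a read -2.91, -1.998 and -3.19 in corn oil and -2.99, -3.81 and -3.08 with phenolphthalein. Corn oil replicate 2 was high and phenolphthalein replicate 2 low, while the remaining 4 arrays lay together. The log2 fold change of -0.60 ± 0.37 (SE) had a 95% interval of -1.50 to 0.31 and a limma adjusted p of 0.479. Without corn oil replicate 2 it was -0.25, and without phenolphthalein replicate 2 it was -0.34.

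The brighter Cd4 probe read -2.13, -2.31 and -2.63 in corn oil and -2.86, -3.00 and -2.49 with phenolphthalein. Phenolphthalein replicate 3 lay above corn oil replicate 3. For this probe the log2 fold change was -0.43 ± 0.19 (SE), with a 95% interval of -0.89 to 0.03 and a limma adjusted p of 0.344. The second Cd4 probe read -4.19, -4.09 and -4.02 in corn oil and -4.95, -6.42 and -5.21 with phenolphthalein, well above background on 3 of 3 and 1 of 3 arrays. Its groups did not overlap and its log2 fold change was -1.43 ± 0.38 (SE), with a limma adjusted p of 0.251 over all probes. It passed the brightness filter mainly through the corn oil arrays, and its phenolphthalein values are partly background. On phenolphthalein replicates 2 and 3 it was not well above background, so the size of its fold change is not set against that of the brighter probe.

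**Figure D2:**
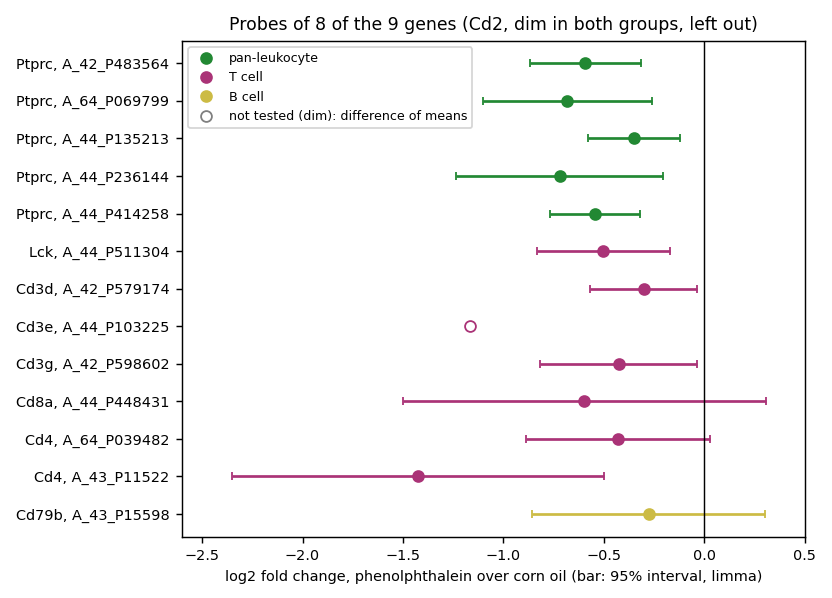
Log2 fold change, phenolphthalein over corn oil (horizontal axis), of the 12 tested member probes, with 95% intervals from limma's fit over all probes, and as an open symbol the measured difference of Cd3e, which was not tested; Cd2, dim in both groups, is left out. All points lie below 0, and the intervals of Cd8a, the brighter Cd4 probe and Cd79b reach past it.

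Cd79b, the only B cell gene among the 9, read -2.27, -3.06 and -2.29 in corn oil and -2.86, -2.65 and -2.94 with phenolphthalein. Corn oil replicate 2 was the lowest of the 6 arrays, so the groups overlapped fully. The log2 fold change was -0.28 ± 0.24 (SE), 0.825 of the corn oil level with a 95% interval of 0.553 to 1.23, and limma's adjusted p was 0.604. Without corn oil replicate 2 it was -0.54, and it was -0.14 without corn oil replicate 1 and -0.15 without replicate 3.

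The change of T cell genes was not told apart from that of Cd79b, and 6 arrays could hardly do so. The median log2 fold change of the 5 tested T cell genes was -0.43, which is -0.15 relative to Cd79b. For single genes the difference from Cd79b was -0.22 for Lck, -0.02 for Cd3d, -0.15 for Cd3g, -0.32 for Cd8a and -0.15 for Cd4. The SD of these differences over corn oil arrays was 0.40 to 1.07 log2 units, larger than each difference. In 5 2-sided exact permutation tests over arrays p ran from 0.6 to 1, and all were 1 after adjustment. Without corn oil replicate 2 the T cell median lay 0.13 above Cd79b, and without phenolphthalein replicate 2 it lay 0.04 above. The sign of the gap therefore turned with 1 array.

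**Figure D3:**
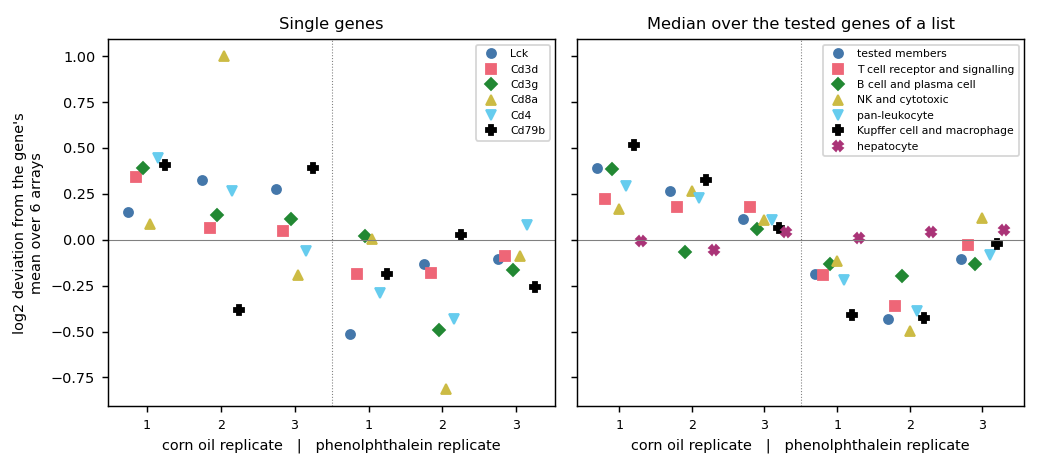
Log2 deviation from the gene's own mean over the 6 arrays (vertical axis) for T cell genes and Cd79b (left) and as the median over the tested genes of each list (right), by replicate in each group (horizontal axis). Cd8a is highest and Cd79b lowest on corn oil replicate 2, and the hepatocyte median runs from -0.06 to 0.05.

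By array, the median deviation of the 7 tested members from their own means was 0.39, 0.26 and 0.11 in corn oil, and -0.19, -0.43 and -0.11 with phenolphthalein. Phenolphthalein replicate 2 was thus the lowest array, and the third replicates of the groups were closest to each other. Ptprc correlated across the 6 arrays with Cd3d at Pearson r = 0.93, with Cd4 at 0.90, with Cd3g at 0.86, with Lck at 0.82, with Cd8a at 0.63 and with Cd79b at 0.38. These arrays share the group difference, and after each group's mean was taken out r was 0.97 for Cd4, 0.75 for Cd3d and 0.63 for Cd3g. It was -0.02 for Lck and -0.15 for Cd79b. Within groups, Cd8a and Cd79b ran against each other, at r = -0.92. These values describe 6 arrays and carry no test.

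Other T cell genes were looked at through a list of 30, of which 26 were on the array and 18 were tested. No gene passed in limma over all genes. An unadjusted p under 0.05 was found for 7, all lower, where 8.11% of all genes were lower. Of the 18, 17 had a lower mean, with a median of -0.34, which was -0.11 with normexp. For 6 of the 18 phenolphthalein was lower without overlap, against 11.0% of all genes. The counts of 7 and 6 both include Il2ra, at -0.89 ± 0.33 (SE), whose values in both groups are partly background. Only 1 phenolphthalein array marked Il2ra well above background, and replicate 2 of that group read -6.22. Log2 fold changes were -0.83 ± 0.12 (SE) for Icos, a T cell costimulator, -0.43 ± 0.08 for Il2rb, an interleukin-2 receptor chain of T and NK cells, and -0.76 ± 0.21 for Cd7. Their limma adjusted p-values were 0.116, 0.164 and 0.233. They were -0.70 ± 0.25 (SE) for Cd8b, the partner chain of CD8A, -0.36 ± 0.12 for the kinase Zap70 and -0.34 ± 0.24 for Cd247, the zeta chain of the receptor.

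For B cells, 17 of a list of 24 were tested. No gene passed in limma. At an unadjusted p under 0.05 there were 2, both lower, where 8.11% of all genes were lower. Of the 17, 15 had a lower mean, with a median of -0.29. The median was -0.15 without corn oil replicate 1, -0.18 without phenolphthalein replicate 3 and -0.08 with normexp. The B lymphoid kinase gene Blk averaged -3.05 ± 0.11 in corn oil against -4.52 ± 0.43 in treated rats (SD, n = 3 each), a difference of -1.47 ± 0.22 (SE) with 0.116 as limma's adjusted p. Log2 fold changes were -1.13 ± 0.43 (SE) for Cd180, with values partly at background, and -0.62 ± 0.26 for Fcer2. Among the 17 genes and Cd79b, 9 of 18 had their lowest corn oil value on replicate 2, against 32.1% of all genes tested. For Cd79a and Ms4a1 no probe was matched by accession.

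NK and cytotoxic genes gave 13 tested of 23. None passed in limma. At an unadjusted p under 0.05 there were 4 lower and 1 higher, where 8.11% of all genes were lower and 7.16% higher. Of the 13 means 9 were lower, with a median of -0.36. Log2 fold changes were -0.67 ± 0.19 (SE) for Xcl1, a chemokine of activated T and NK cells, -0.68 ± 0.19 for the granule protein gene Nkg7 and -0.62 ± 0.20 for perforin, Prf1. The tested granzyme genes, which encode proteases of cytotoxic granules, were at -0.54 ± 0.22 (SE) for Gzmm, -0.38 ± 0.29 for Gzmb, -0.36 ± 0.34 for Gzmk and -0.18 ± 0.18 for Gzma. Of the 4 higher means, Klrd1 was at 0.29 ± 0.27 (SE), Klrb1a at 0.02 ± 0.31 and Cst7 at 0.01 ± 0.12. The higher gene with an unadjusted p under 0.05 was Tbx21, at 0.24 ± 0.08. Its probe alone read 111 to 118 times the 75th percentile in corn oil and 131 to 145 times with phenolphthalein, nearly all of the list's summed level, and whether it reads this T-box factor alone was not tested. The other 12 genes summed to 5.88 to 7.06 in corn oil and 4.20 to 5.82 with phenolphthalein. The median was -0.21 without phenolphthalein replicate 2, which was the lowest phenolphthalein array for 10 of the 13 genes.

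Pan-leukocyte genes other than Ptprc gave 23 tested of 30. All 23 had a lower mean, with a median of -0.42, and 0 passed by limma. Of the 23, 12 were lower at an unadjusted p under 0.05, against 8.11% of all genes. In 15, phenolphthalein was lower without overlap, against 11.0% of all genes. Itgal, the alpha chain of the integrin LFA-1, differed by -0.68 ± 0.08 (SE) on the log2 scale, with 0.083 as limma's adjusted p. It read -2.76, -2.61 and -2.77 in corn oil and -3.41, -3.38 and -3.39 with phenolphthalein, so the gap between groups was wider than either spread. Log2 fold changes were -0.63 ± 0.11 (SE) for the inositol phosphatase gene Inpp5d and -0.61 ± 0.13 for Hcls1, a cytoskeletal adaptor of blood cells. Lymphocyte chemokines and adhesion genes gave 17 tested of 21, of which 0 passed. At an unadjusted p under 0.05 there were 5, all lower, against 8.11% of all genes. In this list 12 means were lower and 5 higher, with a median of -0.23. The chemokine receptor gene Cxcr3 differed by -0.88 ± 0.18 (SE), its ligand Cxcl10 by -1.04 ± 0.23 and Cxcl16 by -0.33 ± 0.09. Among the 5 higher means were Ccl21 at 0.31 ± 0.36 (SE), Cxcl13 at 0.14 ± 0.35 and Ccl19 at 0.13 ± 0.20. Cxcl11, at 0.10 ± 0.21, and S1pr1, at 0.07 ± 0.17, were higher too.

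**Figure D4:**
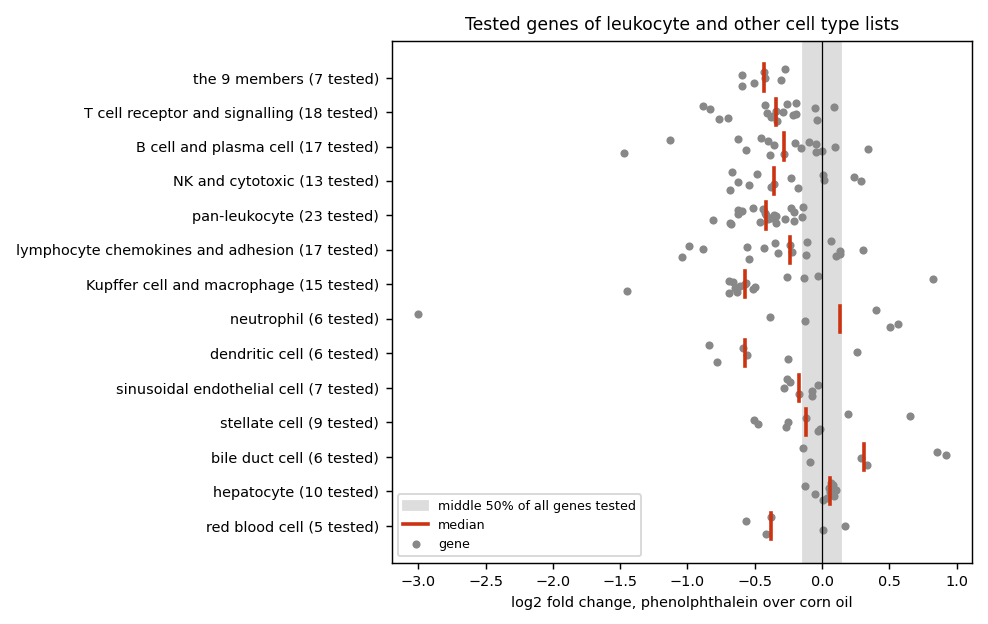
Log2 fold change, phenolphthalein over corn oil (horizontal axis), of each tested gene (points) in the member set and 13 lists of leukocyte and other cell type genes, with list medians (red) and the middle 50% of all genes tested (grey band). The member median of -0.43 lies beside that of the pan-leukocyte list, -0.42, and the hepatocyte median is 0.06, or -0.02 with quantile normalization.

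Marker lists of other cell types differed between groups to unequal extents. Kupffer cell and macrophage genes had a lower mean in 14 of 15, with a median of -0.57, and 0 passed in limma. Against 8.11% of all genes lower and 7.16% higher at an unadjusted p under 0.05, 10 of these genes were lower and 1 higher. Their summed level, in units of the 75th percentile, was 229 to 318 on corn oil arrays and 180 to 225 on phenolphthalein arrays, and no marker was at 0. Log2 fold changes were -1.45 ± 0.28 (SE) for Marco and -0.63 ± 0.15 for Cd163, both scavenger receptors, and -0.51 ± 0.13 for Csf1r. They were -0.69 ± 0.18 for Cd68 and -0.56 ± 0.16 for Clec4f, a Kupffer cell lectin. The higher gene was Cd14, at 0.82 ± 0.28. The part of macrophages in the signal of Ptprc, Cd4 and the pan-leukocyte genes was not tested. The 6 tested dendritic cell genes had a median of -0.57, with 5 means lower and 1 higher. Among the lower were Batf3 at -0.78 ± 0.12 (SE), Cd83 at -0.84 ± 0.18 and Clec9a at -0.56 ± 0.15. Clec10a was the higher one, at 0.26 ± 0.14.

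Genes of the remaining cell types had smaller or mixed differences, and none passed in limma. The 7 sinusoidal endothelial genes had a median of -0.17 and the 9 stellate cell genes one of -0.12. At an unadjusted p under 0.05, 1 gene of each list was lower and 1 stellate gene was higher. Of all genes, 8.11% were lower and 7.16% higher at that p. Log2 fold changes were -0.29 ± 0.09 (SE) for Cdh5, an endothelial cadherin, -0.24 ± 0.12 for Tek and -0.26 ± 0.14 for Emcn. Among stellate genes they were 0.65 ± 0.19 for Rgs5, -0.48 ± 0.14 for Col1a1 and -0.51 ± 0.26 for Dcn. Neutrophil genes had a median of 0.13 over 6, with 3 means lower and 3 higher. The lower ones were Camp at -0.39 ± 0.09 (SE), Csf3r at -0.13 ± 0.21 and Itgam at -3.00 ± 1.04. Itgam was well above background on 1 of 3 phenolphthalein arrays. The higher ones were S100a9 at 0.57 ± 0.28, S100a8 at 0.51 ± 0.30 and Lcn2 at 0.40 ± 0.46. At an unadjusted p under 0.05, 2 of the 6 were lower and 0 higher. Bile duct genes had a median of 0.31 over 6, with 4 means higher and 2 lower. An unadjusted p under 0.05 was found for 3 of the 6, all higher, against 7.16% of all genes. Higher were Cftr at 0.85 ± 0.17 (SE), Spp1 at 0.92 ± 0.21, Krt7 at 0.33 ± 0.28 and Epcam at 0.29 ± 0.08. Lower were Krt19 at -0.09 ± 0.21 and Anxa4, the brightest of the list, at -0.14 ± 0.14. Red blood cell genes had a median of -0.38 over 5, with 3 means lower and 2 higher. Lower were Alas2 at -0.42 ± 0.24 (SE), Ahsp at -0.38 ± 0.16 and Epb42 at -0.57 ± 0.31. Slc4a1 was at 0.17 ± 0.30 and Hbb, the brightest of the list, at 0.01 ± 0.16. The 10 hepatocyte genes had a median of 0.06 and a range of -0.13 to 0.10, with 0.01 ± 0.07 (SE) for Alb, 0.10 ± 0.07 for Fgb, 0.09 ± 0.07 for Ttr and -0.13 ± 0.13 for Hnf4a. Over the alternatives the hepatocyte median ran as low as -0.02, the neutrophil median as low as -0.09 and the dendritic one as high as -0.16, and without 1 array the stellate median ran from -0.24 to 0.06 and the neutrophil one from -0.16 to 0.21. The endothelial median was -0.09 without phenolphthalein replicate 1, with normexp or with dim array columns masked, and -0.10 with a median shift. The bile duct median was 0.17 without corn oil replicate 2. The red blood cell median was -0.19 without corn oil replicate 3 and -0.12 with normexp.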

How the data were processed

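The deposited scanner files give spot intensity from Agilent Feature Extraction, version 10.7.1.1 per the file headers and 10.7 per the submitters' processing notes. The software's processed intensity, with background and spatial trend already removed by the authors' scan software per the file headers, was used as log2 minus each array's 75th percentile over the 61657 probes other than controls. The authors' deposited values hold this intensity divided by a factor per array on a linear scale, constant to within 0.0314%, with column medians from 0.0941 to 0.102.

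Outlier-marked spots, 4 to 14 per array, were set missing, and a probe was tested if 3 or more of the 6 arrays marked it well above background. Probes were named by accession through RefSeq (GRCr8, names and promoter sequences only, since the array is annotated on another build): 27460 matched 1 gene, 0 several and 34197 none. The brightest probe on average stood for a gene. Genes and, separately, all probes were fitted in limma 3.58.1 (R 4.3.3, with version 1.17.8 of the data.table package), phenolphthalein minus corn oil, with Benjamini-Hochberg adjustment at 0.05, and the fit was tested on simulated data. The precision is limited by 3 arrays per group, each a separate animal per the labels.

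The members and lists were chosen with earlier results of these data known. Named genes were all member probes, the 3 genes with the smallest p of each list, Cd79a, Ms4a1, Cd247, Cd8b, Zap70, Cd68, Clec4f, Alb and Alas2, and the 5 genes most correlated with Ptprc. Tbx21, Cd14, Clec10a, Krt7, Krt19, Anxa4, Slc4a1, Hbb and the granzyme genes were named after their values were seen. So were Klrd1, Klrb1a, Cst7, Il2ra, Ccl21, Cxcl13, Ccl19, Cxcl11, S1pr1, S100a8, Lcn2 and Csf3r. A further gene that the rule names is not reported here.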

Additional observations from a re-analysis of the deposited data

How the results depend on the processing

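All 7 tested members kept a lower mean in all 17 alternative fits, and 0 members passed in any of them. The member median ran from -0.57 to -0.34 without 1 array and from -0.50 to -0.31 in the other settings. Background correction with normexp gave medians of -0.11 for the T cell list and -0.0842 for the B cell list, and the mean of a gene's probes, which takes in the dim one, gave -0.93 for Cd4. Over all genes, the calls were 0 to 6 higher and 0 to 0 lower without 1 array, and over all probes 0 to 5 higher and 0 to 1 lower. Genes called lower were 0 with normexp, quantile normalization, no filter or an intensity trend, and 2 with a filter on all 6 arrays. Probes called were 0 higher and 0 lower with no filter, and 2 lower with a filter on all 6 arrays or an intensity trend. The cause of these changes was not tested. The replicate number as a replicate block gave 0 genes and 0 probes called in either direction. Arrays of the same number did not deviate together (r = -0.02, 0.02 and -0.004 over 11426 genes). These r do not settle whether the numbers pair the animals. The median of all genes moved to 0.09 with a median shift. No member spot lay in the array columns masked for dim spots, 1 column on each of 2 phenolphthalein arrays.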

Other observations

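The genes whose values followed Ptprc most closely over the 6 arrays were Abcg1 (Pearson r = 0.996), a cholesterol exporter of macrophages and other cells, Sall2 (0.994), Cd38 (0.994), an ectoenzyme of immune cells, Abi3 (0.994) and Mobp (0.993). Their log2 fold changes were -0.76 ± 0.11 (SE) for Abcg1, -0.90 ± 0.12 for Sall2, -0.50 ± 0.10 for Cd38, -0.50 ± 0.11 for Abi3 and -0.66 ± 0.10 for Mobp. In all, 161 of the 11434 genes tested had r over 0.95 with Ptprc. These r include the group difference, and the groups did not overlap for Ptprc. Genes picked by a high r with Ptprc therefore have lower means by choice, and their fold changes are no separate result. Their r within groups is not given.

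The lowest array within a group differed between cell types. Corn oil replicate 3 was the lowest corn oil array for 17 of 23 pan-leukocyte genes and 12 of 15 Kupffer cell and macrophage genes, against 35.6% of all genes tested. Phenolphthalein replicate 2 was the lowest of its group for 16 of 23 pan-leukocyte genes and 10 of 13 NK and cytotoxic genes, against 36.1% of all genes tested. For the 17 listed B cell genes with Cd79b it was the lowest for 5 of 18. These patterns were noticed in the data and were not tested.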
